A study of Mus musculus with 6 samples.

Results

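Cytotoxic lymphocytes express a set of effector and receptor genes, and 10 genes of that set are described here across 6 mouse leukaemias. They are the granule genes Gzma, Gzmb, Prf1 and Nkg7, the NK-cell receptor genes Klrd1, Klrb1c, Klrk1 and Ncr1, the cytokine receptor gene Il2rb and the chemokine gene Ccl5. The genes were chosen by symbol with earlier results of these arrays known, so their levels are given as a description. Of the 10, 9 had a probe set annotated to that symbol alone, out of 18193 genes measured in all. Klrb1c had none, so its expression was not analysed here. Where a gene had several such probe sets, the one with the highest average level was read.

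The arrays compared Cdh1-deficient with Cdh1-intact N-myc-induced B-cell leukaemia, with 3 arrays in each group. Cdh1 here is the activator of the anaphase-promoting complex, a ubiquitin ligase of mitosis and G1, whose mouse gene is Fzr1. Donors of both groups were C57BL/6 mice carrying 2 copies of a conditional gene-trap allele of Cdh1 with a floxed cDNA, and both groups were injected with pIpC at 7 to 8 weeks of age. Cdh1-deficient donors also carried the Mx1-Cre transgene, whose interferon-inducible promoter is not restricted to B cells, and Cdh1-intact donors, drawn from the same litters, lacked it. Marrow was taken 4 weeks after the last pIpC dose and 2 days after 150 mg/kg 5-fluorouracil, and N-myc was delivered by a retroviral vector that also marks cells with green fluorescent protein. RNA came from GFP-positive marrow mononuclear cells of moribund mice, 1 array per mouse. The host mice are not described in the labels, and the sort selected on the vector and not on a lineage.

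Granzymes are serine proteases stored in the granules of cytotoxic T cells and natural killer (NK) cells, and perforin, the product of Prf1, opens the way for them into the target cell. NK cells carry no rearranged antigen receptor and are steered by activating and inhibitory surface receptors, many of them encoded together in the NK gene complex. Some T cells take up parts of the same program, and B-lineage cells normally do not.

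Levels are log2 values made with RMA, a method that makes the distributions of the arrays alike. Differences are read between arrays for the same probe set, and the array quartile and median serve only as rough guides to level. The lower quartile of all probe sets lay between 3.75 and 3.83 on the 6 arrays, and levels up to about 1 log2 unit above it are called near the floor. Array medians lay between 5.07 and 5.13. No detection call was used. In a sorted bulk sample, a change in the share of cells of a type and a change in the RNA per cell cannot be told apart.

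Cdh1-intact array 2 went against its label of B-cell leukaemia. Cd79b, which encodes a signalling chain of the B-cell receptor, had levels of 12.09, 11.60 and 11.61 on Cdh1-deficient arrays 1, 2 and 3, and of 11.99, 4.35 and 12.47 on Cdh1-intact arrays 1, 2 and 3. Cd79a and Ms4a1, further B-cell genes, read 4.86 and 3.97 on Cdh1-intact array 2, and the lowest of the other arrays read 8.68 for each. The 9 B-lineage markers averaged 8.75 to 9.14 on the Cdh1-deficient arrays and 8.92, 4.97 and 9.39 on the Cdh1-intact arrays. The 13 T-cell markers averaged 4.78 to 4.86 on the Cdh1-deficient arrays and 4.92, 8.94 and 6.21 on the Cdh1-intact arrays. The T-cell receptor complex gene Cd3g lay at 3.31, 3.47 and 3.52 on the Cdh1-deficient arrays and at 3.25, 12.48 and 7.95 on the Cdh1-intact arrays. Its partner Cd3e lay at 5.95, 5.65 and 5.80 on the Cdh1-deficient arrays and at 6.14, 9.63 and 6.48 on the Cdh1-intact arrays. The coreceptor genes Cd4 and Cd8a spanned 5.41 to 5.64 and 5.04 to 5.33 over all arrays, so neither was high on the array with the highest Cd3g. Further Cd8a probe sets, named after their values were seen, differed on Cdh1-intact array 3. Some were highest there, at 4.95 and 4.93, and the others were not. The 7 neutrophil markers averaged 9.77 to 11.4 on the Cdh1-deficient arrays and 10.6, 6.48 and 9.83 on the Cdh1-intact arrays. The 5 monocyte markers averaged 6.18 to 7.56 on the Cdh1-deficient arrays and 7.28, 5.16 and 6.24 on the Cdh1-intact arrays, and the 4 erythroid markers 4.75 to 5.04 on the Cdh1-deficient and 6.13, 4.88 and 4.67 on the Cdh1-intact arrays. Of these markers, 7 of 9 B-lineage and 6 of 7 neutrophil genes were higher, and 12 of 13 T-cell genes lower, in Cdh1-deficient cells, and 0 passed the limma test at an adjusted p under 0.05. The B-lineage, T-cell and neutrophil lists moved with the array on which several members were high, and their part in the results was not tested. Group differences of the high members are therefore given with and without Cdh1-intact array 2.

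**Figure D1:**
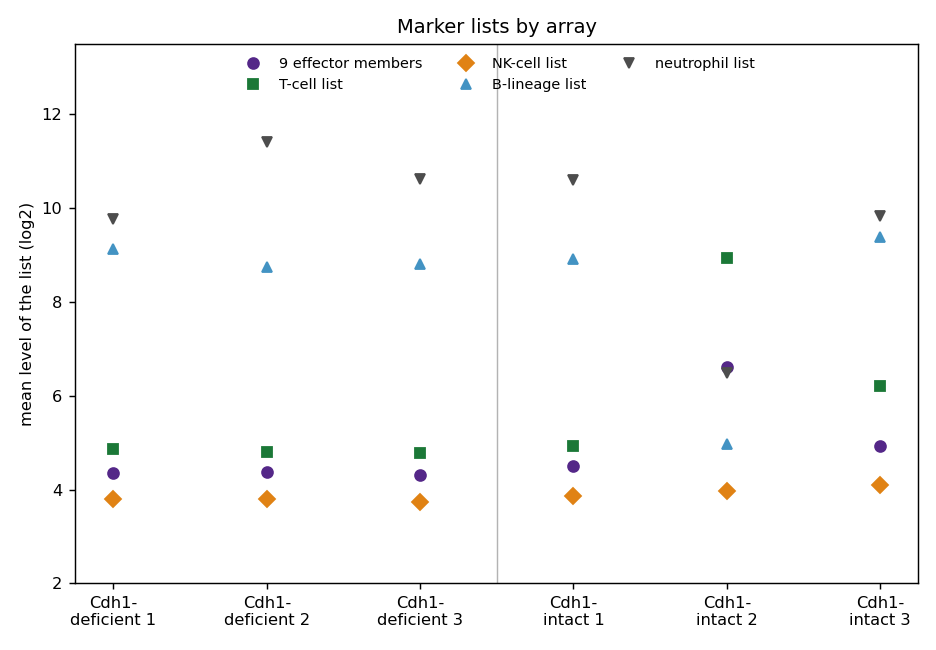
Mean log2 level (vertical axis) of the 9 measured effector members and of 4 marker lists on each array, Cdh1-deficient left and Cdh1-intact right, with 1 point per list and array. Lists are to be compared across arrays and not with each other. On Cdh1-intact array 2 the T-cell mean was 8.94 and the B-lineage mean 4.97, while the NK-cell mean stayed between 3.73 and 4.10 on all arrays.

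The granule genes divided into a pair that was high on Cdh1-intact array 2 and a pair that varied little. Gzma encodes granzyme A, a trypsin-like granule protease. Its level was 4.36, 4.30 and 4.16 on Cdh1-deficient arrays 1, 2 and 3, and 4.40, 12.39 and 8.33 on Cdh1-intact arrays 1, 2 and 3. Cdh1-intact array 2 lay 8.11, and array 3 lay 4.05, above the Cdh1-deficient mean on the log2 scale, while Cdh1-intact array 1 was 0.12 above it. The Cdh1-deficient values were themselves near the floor, so no fold is given. Nkg7, a membrane protein of cytotoxic granules, lay at 4.75, 5.12 and 4.63 on the Cdh1-deficient arrays and at 5.15, 9.54 and 5.50 on the Cdh1-intact arrays. Cdh1-intact array 2 alone was high, and array 3 exceeded the highest Cdh1-deficient array by 0.38.

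Gzmb encodes granzyme B, the aspartate-cleaving granzyme that activates caspases. It lay at 3.78, 3.83 and 4.05 on the Cdh1-deficient arrays and at 3.89, 4.03 and 3.62 on the Cdh1-intact arrays. All 6 values were near the floor and the groups overlapped. Prf1 lay at 5.60, 5.36 and 5.51 on the Cdh1-deficient arrays and at 5.36, 5.25 and 5.31 on the Cdh1-intact arrays. These values were a little above the array medians, and the groups overlapped by a small margin. The lowest value was that of Cdh1-intact array 2, the array on which Gzma was highest, and a second Prf1 probe set spanned 4.03 to 4.29 over the 6 arrays. A low reading on a probe set shows that no high level was measured, and detection was not assessed.

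The promoters of these 4 granule genes are shown because Gzma and Nkg7 were high on the same array while Gzmb and Prf1 were not. Each is the 250 bases before the transcription start in RefSeq on GRCm38.p6, written 5′ to 3′ on the strand of the gene. Capitals mark 2 motifs. The RUNX core was searched as TGTGGT and, for the opposite strand, as ACCACA. The T-box site was searched as TCACAC and, for the opposite strand, as GTGTGA. RUNX and T-box factors are known regulators of cytotoxic genes.
Gzma promoter, chr13:113100982-113101231, minus strand: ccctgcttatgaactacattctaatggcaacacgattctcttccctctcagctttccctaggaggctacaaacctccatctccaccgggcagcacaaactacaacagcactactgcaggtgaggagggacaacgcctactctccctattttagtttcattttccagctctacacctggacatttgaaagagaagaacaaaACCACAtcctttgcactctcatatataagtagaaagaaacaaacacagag
Nkg7 promoter, chr7:43436888-43437137, plus strand: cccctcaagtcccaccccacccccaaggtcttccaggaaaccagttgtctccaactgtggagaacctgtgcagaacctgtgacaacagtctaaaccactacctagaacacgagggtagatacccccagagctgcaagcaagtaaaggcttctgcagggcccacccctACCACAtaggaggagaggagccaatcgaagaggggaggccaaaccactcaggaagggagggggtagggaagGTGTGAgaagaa
Gzmb promoter, chr14:56262335-56262584, minus strand: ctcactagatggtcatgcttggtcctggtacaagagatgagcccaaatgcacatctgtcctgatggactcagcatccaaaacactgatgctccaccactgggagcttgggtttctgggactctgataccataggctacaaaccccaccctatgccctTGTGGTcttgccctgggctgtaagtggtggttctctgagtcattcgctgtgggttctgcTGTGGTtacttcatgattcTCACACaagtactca
Prf1 promoter, chr10:61297586-61297835, plus strand: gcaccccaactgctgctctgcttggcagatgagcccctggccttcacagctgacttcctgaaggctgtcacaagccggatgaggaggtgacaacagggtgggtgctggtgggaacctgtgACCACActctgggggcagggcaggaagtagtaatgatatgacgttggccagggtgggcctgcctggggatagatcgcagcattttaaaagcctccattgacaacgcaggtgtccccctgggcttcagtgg
The RUNX core was found in all 4, at 50 bases before the start in Gzma, 83 in Nkg7, 93 and 34 in Gzmb and 130 in Prf1, counted to the first base of the match. The T-box site was found 12 bases before the start of Nkg7 and 15 before that of Gzmb, and not in the windows of Gzma and Prf1. Of the 10 genes, 7 had a promoter in the table, Klrb1c, Klrk1 and Ncr1 beside the 4 shown, and the RUNX core was in 7 of 7, against 14.0% of all 32851 promoter windows of this length. The T-box site was in 3 of 7, against 12.3% of all windows. The ETS core, searched as AGGAAG and on the opposite strand as CTTCCT, was in 3 of 7, against 29.5%. No match of one motif overlapped a match of another. The motifs were chosen after the sequences had been seen, and the RUNX core was in windows of genes that were high on Cdh1-intact array 2 and of genes that were not, so the match is a description only. Runx3, the RUNX factor of cytotoxic lymphocytes, spanned 8.78 to 9.59 over the 6 arrays, with the lowest value on Cdh1-intact array 2, and was chosen for naming after its values were seen.

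The NK-cell receptor genes Klrd1, Klrk1 and Ncr1 were below the array median on every array. Klrd1 encodes CD94, which pairs with NKG2 chains to read MHC class I. It lay at 3.04, 3.12 and 3.09 on the Cdh1-deficient arrays and at 3.33, 2.86 and 3.09 on the Cdh1-intact arrays. Klrk1 encodes NKG2D, an activating receptor for stress-induced ligands. Its levels were 4.48, 4.41 and 4.05 on the Cdh1-deficient arrays and 4.87, 4.48 and 4.25 on the Cdh1-intact arrays. Ncr1 encodes NKp46, an activating receptor typical of NK cells. It lay at 4.02, 4.26 and 4.09 on the Cdh1-deficient arrays and at 4.17, 4.12 and 4.17 on the Cdh1-intact arrays. The groups overlapped for all 3 genes, and Cdh1-intact array 2 was the highest array for none of them.

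Il2rb, the β chain shared by the IL-2 and IL-15 receptors, was high on Cdh1-intact array 2 alone. Its level was 4.29, 4.36 and 4.36 on the Cdh1-deficient arrays and 4.20, 9.70 and 4.37 on the Cdh1-intact arrays. A second Il2rb probe set gave 4.46, 4.26 and 4.14 on the Cdh1-deficient arrays and 4.32, 7.26 and 4.41 on the Cdh1-intact arrays and was also highest on Cdh1-intact array 2. On it, array 3 did not exceed each Cdh1-deficient array. Ccl5, a chemokine of memory T cells and NK cells, lay at 4.94, 4.68 and 4.81 on the Cdh1-deficient arrays and at 5.08, 7.11 and 5.65 on the Cdh1-intact arrays. All 3 Cdh1-intact values were above the Cdh1-deficient ones, array 1 by the least.

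**Figure D2:**
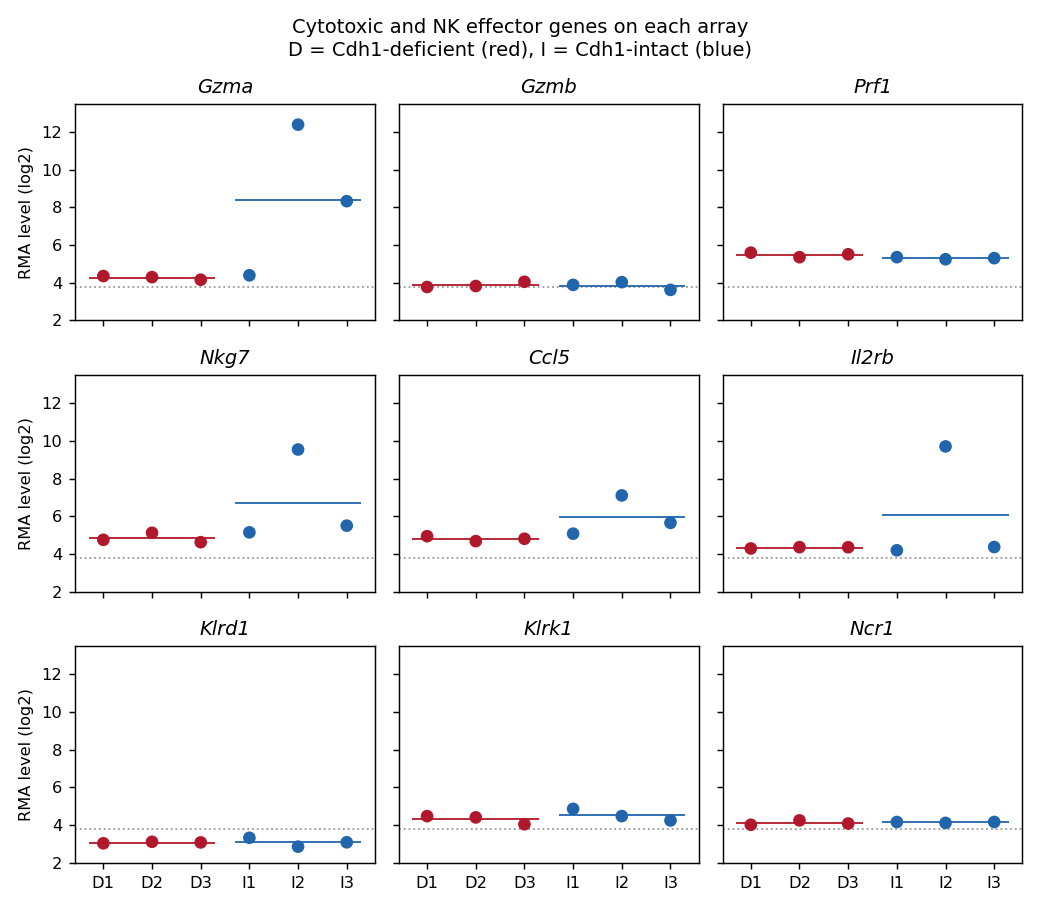
Log2 RMA level (vertical axis) of the 9 measured members on each array, with D1 to D3 for Cdh1-deficient arrays and I1 to I3 for Cdh1-intact arrays. Points are arrays, solid lines group means, and the dotted line the mean lower quartile of all probe sets. Gzma, Nkg7, Il2rb and Ccl5 were highest on I2, Gzma was also high on I3 at 8.33, and the other 5 members varied by at most 0.82 over the arrays.

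Between the groups, 0 of the 9 members passed the limma test at an adjusted p under 0.05, against 0% of the 18193 genes. At an unadjusted p under 0.05 limma counted 0 members and 1000 genes, with 1.49% of genes lower and 4.01% higher in Cdh1-deficient cells. Of the 9 members, 7 were lower in Cdh1-deficient cells, against 49.1% of all genes, with a median difference of −0.22 beside 0.0034 over all genes. The 7 include Klrd1 and Ncr1, with differences of only −0.014 and −0.032, whose sign changed with repeated quantile normalization. The groups did not overlap for 3 members, Gzma, Nkg7 and Ccl5, all lower in Cdh1-deficient cells, against 5.09% of genes separated in that direction. For Gzma and Nkg7 the margin was small. Cdh1-intact array 1 read 4.396 and 5.148, beside highest Cdh1-deficient values of 4.358 and 5.124.

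Gzma differed most, by −4.10 (SE 1.90, limma adjusted p = 0.849), from means of 4.27 ± 0.10 in Cdh1-deficient and 8.37 ± 4.00 in Cdh1-intact cells (SD, n = 3 each). Without Cdh1-intact array 2 the difference was −2.09 (SE 1.08, limma adjusted p = 0.825). For Nkg7 it was −1.90 (SE 1.17, limma adjusted p = 0.849) with all arrays and −0.49 (SE 0.20) without that array. For Il2rb the difference of −1.75 (SE 1.49, limma adjusted p = 0.852) became 0.06 (SE 0.12) without it. Ccl5 differed by −1.13 (SE 0.51) with all arrays and by −0.55 (SE 0.20, limma unadjusted p = 0.0378, adjusted p = 0.801) without it. Without Cdh1-intact array 2, 6 of 9 members were lower, against 49.2% of genes, with a median of −0.13. With all arrays, the other 5 members differed by between −0.22, for Klrk1, and 0.18, for Prf1. The Prf1 difference was 0.0065 on its other probe set, the one whose name has no _a, _s or _x suffix. No group difference passed the limma test over all genes at an adjusted p under 0.05.

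Cdh1-intact array 2 was the highest of the 6 arrays for 4 of 9 members, against 21.7% of all genes, and array 3 lay above each Cdh1-deficient array for 4 of 9, against 25.5%. Array 2 exceeded each other array by at least 1 on the log2 scale for the same 4, against 2.82% of all genes. On Cdh1-intact array 3 the same margin above each Cdh1-deficient array was met by 1 member, Gzma, against 0.423% of genes. Il2rb exceeded the highest Cdh1-deficient array by only 0.006 there. To set the arrays side by side, the excess of array 3 over the Cdh1-deficient mean was taken as a percentage of that of array 2, on the linear scale. It was 5.66% for Gzma, 2.35% for Nkg7, 0.055% for Il2rb and 20.2% for Ccl5. For the T-cell receptor complex genes Cd3d, Cd3g and Cd247 it was 6.28%, 4.15% and 9.10%, and for the costimulatory receptor gene Cd28 it was 0.93%. The share differed between members, and with 1 array each there is no replicate check. For Il2rb the excess on array 3 was 0.03 on the log2 scale, less than the Cdh1-deficient SD of 0.04, so its share is not interpreted. Of the 77 genes that met the margin on Cdh1-intact array 3, 29 were also at least 1 above each of the other 5 arrays on Cdh1-intact array 2, a stricter margin, and 48 were not.

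**Figure D3:**
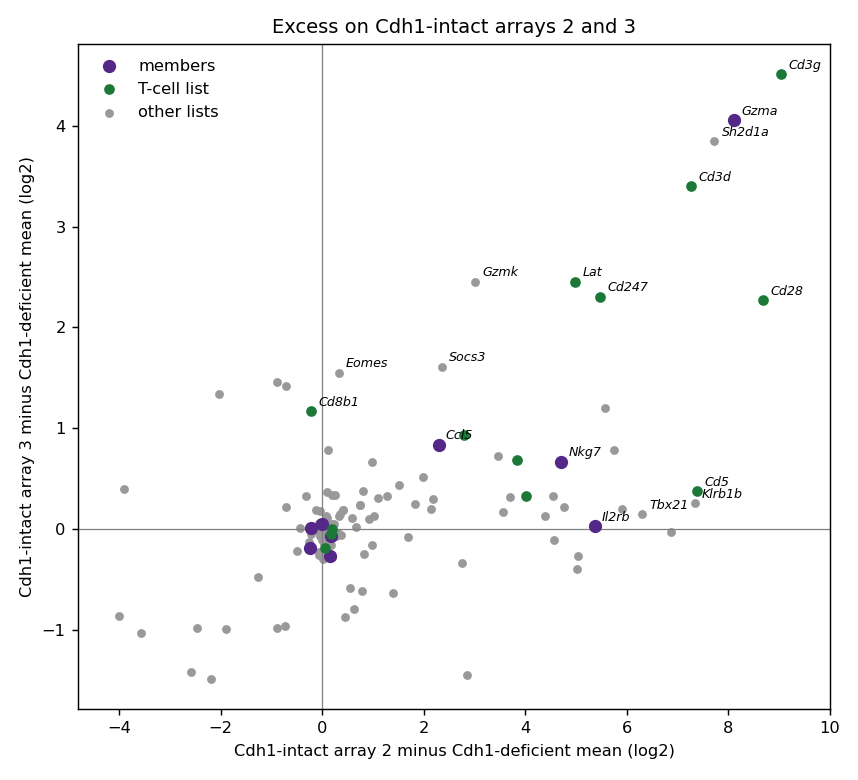
Level on Cdh1-intact array 2 (horizontal axis) and array 3 (vertical axis), each minus the Cdh1-deficient mean in log2 units, with 1 point per gene. Gzma lay beside Cd3g, Sh2d1a and Cd3d with an excess on both arrays (8.11 and 4.05), while Il2rb (5.37 and 0.03), Tbx21 and Klrb1b had an excess on array 2 only.

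Gzma and Gzmk were the granzyme genes with an excess on Cdh1-intact arrays 2 and 3. Gzmk, the granzyme gene next to Gzma on chromosome 13 with 0 protein-coding genes between them in RefSeq, lay at 3.94, 3.85 and 4.07 on the Cdh1-deficient arrays and at 3.83, 6.97 and 6.41 on the Cdh1-intact arrays. The difference between the groups was −1.78 (SE 0.80), or −1.17 without Cdh1-intact array 2. The linear excess of Gzmk on Cdh1-intact array 3 was 63.1% of that on array 2, beside 5.66% for Gzma. The 7 genes of the granzyme B cluster on chromosome 14 (Gzmb, Gzmc, Gzmd, Gzme, Gzmf, Gzmg and Gzmn) lay between 2.35 and 4.05 on all arrays, and none varied by more than 0.47. This grouping was chosen after the values were seen. Of the 8 granzymes beside the members, 6 were lower in Cdh1-deficient cells and 0 passed, with a median difference of −0.10.

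Genes that package, process or restrain granule proteases were measured beside them. Of 11 packaging and processing genes, 8 were lower and 3 higher in Cdh1-deficient cells and 0 passed, with a median difference of −0.35 that became 0.06 without Cdh1-intact array 2. Ctsw, a cathepsin of cytotoxic cells, lay at 5.29, 5.39 and 5.10 on the Cdh1-deficient arrays and at 5.41, 10.30 and 5.00 on the Cdh1-intact arrays. Cst7, encoding the cathepsin inhibitor cystatin F, lay at 5.32, 6.13 and 5.75 on the Cdh1-deficient arrays and at 4.60, 10.75 and 5.34 on the Cdh1-intact arrays. Rab27a, a GTPase of granule release, reached 8.91 on Cdh1-intact array 2, with 4.52 to 5.57 on the other arrays. Ctsl, a lysosomal cathepsin, ran the other way, with 5.06 on Cdh1-intact array 2 against 7.60 to 9.05 on the rest. Of 4 serpin genes, Serpinb9, the inhibitor of granzyme B, had levels of 5.95, 5.63 and 5.74 on the Cdh1-deficient arrays, with 9.23 on Cdh1-intact array 2, although Gzmb itself was near the floor there. Serpinb6b reached 8.74 on that array, with 4.23 to 4.49 on the rest, and 0 of the 4 passed.

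Beside the members, 15 listed genes of the NK complex were measured. On Cdh1-intact array 2, 3 of these 15 exceeded each other array by at least 1 on the log2 scale, against 2.82% of all genes. That array was the highest of the 6 for 9 of the 15, against 21.7% of all genes. Klrb1b, an inhibitory receptor gene that adjoins Klrb1c, lay at 3.13, 3.47 and 3.23 on the Cdh1-deficient arrays and at 3.41, 10.61 and 3.53 on the Cdh1-intact arrays. All 5 of its probe sets were highest on Cdh1-intact array 2. Klrb1a lay at 2.96, 3.04 and 3.05 on the Cdh1-deficient arrays and at 2.93, 9.88 and 2.98 on the Cdh1-intact arrays. Genes of this family are close copies, so the array may not separate them from each other or from Klrb1c. Klra5, a receptor of the Ly49 family, reached 7.95 on Cdh1-intact array 2, with 3.24 to 3.71 on the rest. By contrast Klrc1, Klrc2, Klrc3, Klre1 and Klrd1, which lie side by side with Klrk1 in the complex, spanned 2.52 to 3.49 over all genes and arrays, and 4 other Ly49 genes 2.51 to 3.99. These groupings were chosen after their values were seen. In the groups, 11 of the 15 were lower and 4 higher in Cdh1-deficient cells and 0 passed.

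**Figure D4:**
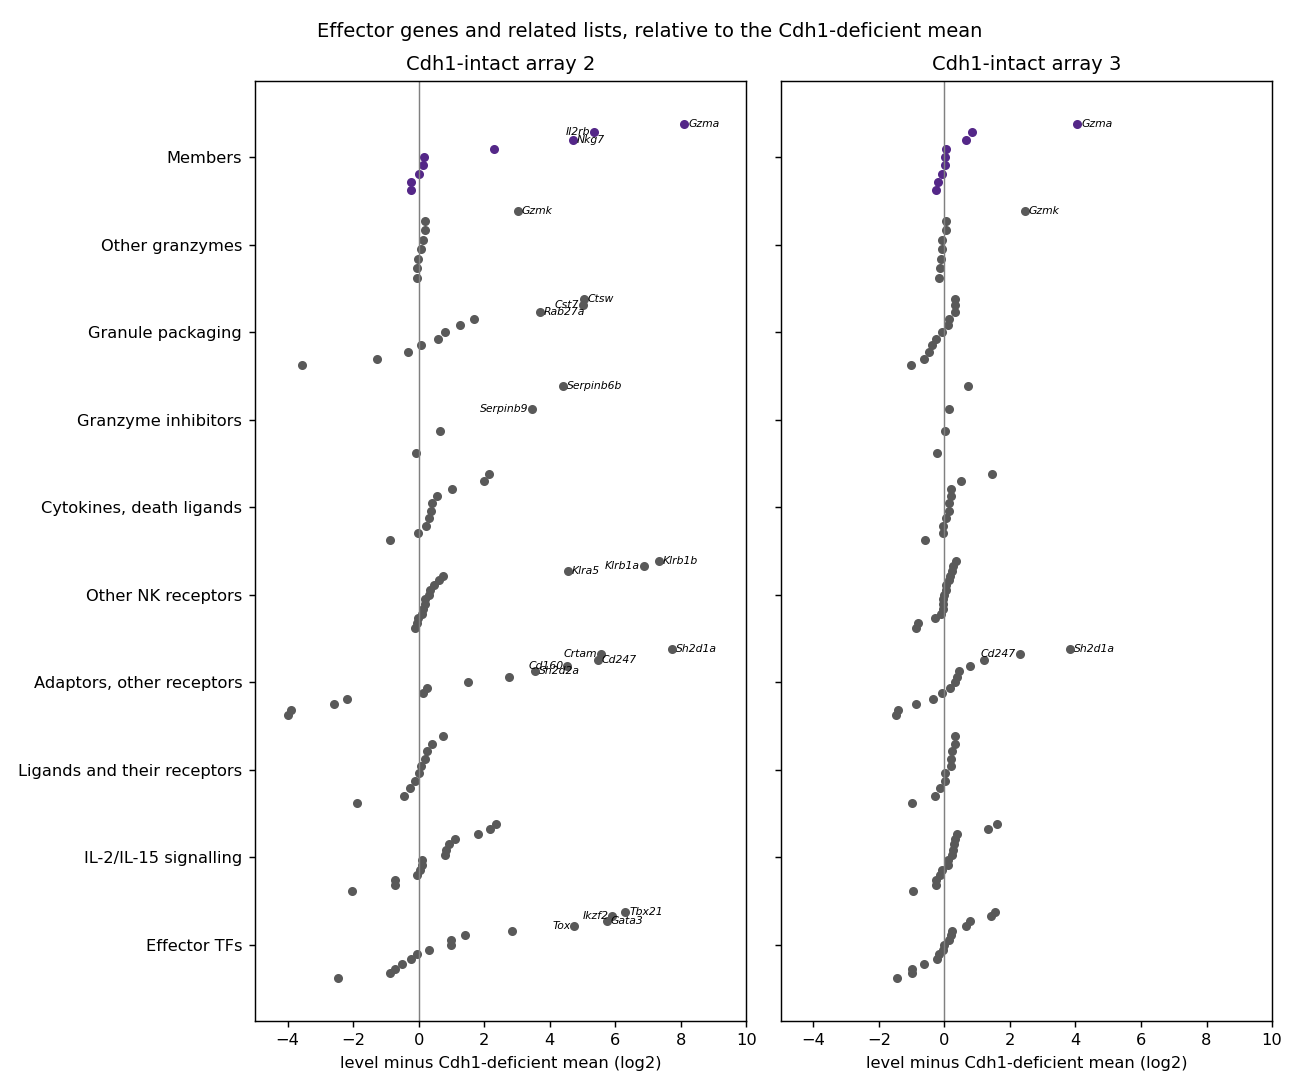
Level on Cdh1-intact array 2 (left) and array 3 (right) minus the Cdh1-deficient mean, in log2 units (horizontal axis), with 1 point per gene for the members and 9 related lists. Genes at or above about 3 on the left or 2 on the right are named. Of the granzymes, Gzma and Gzmk lay to the right on both arrays, and Il2rb, Nkg7, Klrb1b and Tbx21 did so on array 2.

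Adaptors and other activating receptors gave a mixed picture. Of 13 measured, 9 were lower and 4 higher in Cdh1-deficient cells and 0 passed, with a median of −0.82 that became 0.04 without Cdh1-intact array 2. Sh2d1a, the signalling adaptor SAP of T and NK cells, lay at 2.71, 2.82 and 2.92 on the Cdh1-deficient arrays and at 2.97, 10.54 and 6.66 on the Cdh1-intact arrays, which put the Cdh1-intact arrays in the same order as Gzma did. Crtam, a receptor of activated cytotoxic cells, spanned 3.86 to 3.95 over the Cdh1-deficient arrays and had levels of 4.87, 9.48 and 5.12 on the Cdh1-intact arrays. Cd160, another activating receptor, reached 9.01 on Cdh1-intact array 2, with 4.40 to 4.80 on the rest. The partner adaptors of the member receptors, chosen for naming after their values were seen, differed in opposite directions on that array. Hcst, the DAP10 adaptor of NKG2D, reached 10.52 there, with 7.42 to 8.08 on the rest, while Tyrobp, the DAP12 adaptor also made by myeloid cells, read 5.37 there, with 8.37 to 10.63 on the rest.

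Secreted effectors and death ligands were lower in Cdh1-deficient cells in 10 of 10 cases, against 49.1% of all genes, but 0 passed and the median was −0.33, or −0.18 without Cdh1-intact array 2. The groups overlapped for all but 2 of the 10, and 5.09% of all genes were separated in that direction. Some differences were small beside their SE, such as −0.06 (SE 0.13) for Xcl1, named after its values were seen. Ifng, encoding interferon-γ, lay at 3.26, 3.12 and 3.35 on the Cdh1-deficient arrays and at 3.62, 5.24 and 3.77 on the Cdh1-intact arrays. The groups did not overlap, and Cdh1-intact array 2 was highest. Tnfsf10, which encodes the death ligand TRAIL, reached 7.34 on Cdh1-intact array 2, with 5.11 to 5.40 on the rest. Ccl9, a chemokine also made by myeloid cells, lay at 6.21, 6.51 and 4.23 on the Cdh1-deficient arrays and at 7.91, 4.77 and 7.11 on the Cdh1-intact arrays, so it did not share the pattern of Ccl5.

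The partners of Il2rb were measured as well. Of 14 genes of IL-2 and IL-15 signalling, 9 were lower and 5 higher in Cdh1-deficient cells and 0 passed, with a median of −0.22. Il2ra, the α chain that makes the IL-2 receptor high-affinity, spanned 3.90 to 4.16 over all arrays and was chosen for naming after its values were seen. Jak3, the kinase of the common γ chain, reached 7.70 on Cdh1-intact array 2, with 5.74 to 6.13 on the rest, and Il12rb1 reached 6.93 there, with 4.67 to 5.05 on the rest. Socs3, a feedback inhibitor of cytokine signalling, differed by −1.81 (SE 0.66, limma unadjusted p = 0.0342, adjusted p = 0.849). It lay at 4.80, 6.64 and 4.15 on the Cdh1-deficient arrays and at 6.65, 7.56 and 6.81 on the Cdh1-intact arrays, without overlap. Among 10 ligands and chemokine receptors listed for the members and related receptors, 6 were lower and 4 higher and 0 passed. Not every gene on that list pairs with a member directly. The MHC class I genes H2-D1 and H2-K1 differed by −0.29 (SE 0.12) and −0.28 (SE 0.13), and Ccr1, a receptor of Ccl5 also found on myeloid cells, by 1.01 (SE 0.81).

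Transcription factors of effector lymphocytes read differently on Cdh1-intact arrays 2 and 3. Tbx21 encodes T-bet, a T-box factor that drives Ifng and Il2rb. It lay at 3.82, 3.80 and 3.69 on the Cdh1-deficient arrays and at 3.80, 10.08 and 3.92 on the Cdh1-intact arrays. Gata3, Ikzf2 and Tox, factors of T-cell development and function, lay at 9.26, 9.92 and 8.82 on Cdh1-intact array 2, and the highest of the other arrays read 4.30, 4.21 and 4.29. Eomes, the T-box factor related to T-bet, lay at 4.12, 4.11 and 3.94 on the Cdh1-deficient arrays and at 4.54, 4.38 and 5.61 on the Cdh1-intact arrays. It was highest on array 3, where Tbx21 was near the floor, and Cd8b1 was also highest there, with 4.68 against 3.30 to 3.54 on the rest. Eomes and Cd8b1 were chosen for naming after their values were seen. In the groups, 11 of 15 factors were lower and 4 higher in Cdh1-deficient cells and 0 passed.

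The measured markers of NK cells without a T-cell receptor were below the array median on every array, except Eomes at 5.61 on Cdh1-intact array 3. Of 8 such genes 6 were measured, among them the member Ncr1, while Klrb1c and Klra4 were not. The mean of the 6 lay between 3.73 and 3.80 on the Cdh1-deficient arrays and at 3.86, 3.96 and 4.10 on Cdh1-intact arrays 1, 2 and 3. None of the 6 exceeded the other arrays by 1 on Cdh1-intact array 2, and Eomes alone exceeded the Cdh1-deficient arrays by 1 on array 3. Of 13 T-cell markers, 9 were at least 1 above each other array on Cdh1-intact array 2, and 6 were at least 1 above each Cdh1-deficient array on array 3.

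The genes whose profile over the 6 arrays lay closest to the mean profile of the 9 members, by Euclidean distance of centred log2 values, were Rnf122, Il12rb1, Fsd2, Dusp4, Tnfsf10, Rem2, Adipoq and Serpinb5, at distances of 0.23 to 0.39. That mean profile is a blend of high and flat members, so the profiles of single members were also compared, a choice made after seeing the data. Closest to Gzma were Sh2d1a (0.47), Cd3g (1.02), the T-cell receptor γ variable segment Trgv1 (1.24) and Cd3d (1.28). Closest to Nkg7 were Trpc1, Tnik, Serpinb6b and Cd160 (0.51 to 0.58), and closest to Il2rb were Lratd1, Ephx1, Nrgn and Chl1 (0.24 to 0.45). Closest to Ccl5 were Ldhb, Fsd2, Ifng and Sec24d (0.31 to 0.47). Pearson r with the profile was at least 0.98 for each of these genes over the 6 arrays, and each was highest on Cdh1-intact array 2. Both follow largely from the choice, because the genes were picked for closeness to profiles that were highest on that array.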

How the data were processed

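Gene expression was measured on 6 one-colour Affymetrix arrays, 3 Cdh1-deficient and 3 Cdh1-intact, grouped and numbered by sample title. The values are log2 levels that the authors made with RMA, version not stated, per the submitters' processing notes, 1 for each array and probe set. RMA makes array distributions alike, so a change in total RNA per cell cannot be seen. The number of arrays limits the precision, and p-values measure the spread between mice.

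Of 45101 probe sets, 34945 carried 1 symbol in the platform annotation and were used, 932 carried several and were not, and 64 were controls. The probe set with the highest mean represented each of 18193 genes, with no filter. Neighbouring genes, chromosomes and promoter windows came from RefSeq on GRCm38.p6. All genes were fitted with limma 3.58.1 in R 4.3.3 (lmFit, eBayes, two-sided, Benjamini-Hochberg over all genes, threshold 0.05), as Cdh1-deficient minus Cdh1-intact. limma is the tool the series description names. A permutation of 3 against 3 has a smallest two-sided p of 0.1 and was not used.

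The members and the 15 other gene lists, in which 145 of 164 distinct genes were measured, were chosen with earlier results of these data known. All members were named, with up to 4 genes per list by size of the group difference, the lineage markers Cd3d, Cd3e, Cd3g, Cd4, Cd8a, Cd79a, Cd79b and Ms4a1, the 8 genes nearest to the mean member profile and further probe sets of members. Genes outside this rule are said to be so.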

Additional observations from a re-analysis of the deposited data

How the results depend on the processing

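The count of members past the threshold stayed at 0 in each of 17 alternatives, and so did the count of all genes. The smallest adjusted p of any member in an alternative was 0.564. They covered normalization (repeated quantile, or centring) and filters on level (lower quartile, or median). The choice of probe set was also varied (averaged, each alone, or without suffixed ones). Suffixed probe sets are those named with _a, _s or _x, and leaving them out drops Gzma and Klrk1. The alternatives further covered the variance model (trend with robust estimation, or array weights), a threshold of 0.1, the replicate block and each array left out. The median member difference moved to −1.44 with genes below the lower quartile of levels left out and to −4.10 with genes below the median left out, because 6 members and 1 member remained. It was −0.032 over the 7 members left without suffixed probe sets. With single arrays left out it lay between −0.36 and −0.05. The Prf1 difference was 0.0065 without suffixed probe sets and 0.096 with probe sets averaged. With quantile normalization Klrd1 turned to 0.016 and Ncr1 to 0.0031. With single arrays left out the range was −0.13 to 0.10 for Klrd1, −0.10 to 0.018 for Ncr1, −0.076 to 0.13 for Gzmb and −2.70 to 0.055 for Il2rb, which was positive without Cdh1-intact array 2. Gzma ranged from −6.08 to −2.09, Nkg7 from −2.69 to −0.49 and Ccl5 from −1.57 to −0.55. With the replicate block, Gzma differed by −4.10 (SE 1.69, limma adjusted p = 0.837), and 0 members and 0 genes passed. Same-numbered arrays of the groups were checked for pairing by the correlation of their deviations from the group means over genes, which was −0.14, 0.01 and 0.04, and the numbers were not taken as pairs. The count of members highest on Cdh1-intact array 2 stayed at 4 of 9 with repeated quantile normalization, centring or averaged probe sets. Without suffixed probe sets it was 3 of 7. The count of members higher on Cdh1-intact array 3 than on each Cdh1-deficient array fell to 3 of 9 with repeated quantile normalization. It stayed at 4 of 9 with centring or averaging and was 3 of 7 without suffixed probe sets. Low signal limits Gzmb, Klrd1, Klrk1 and Ncr1, whose values lay near the floor.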
